A study of Mus musculus with 10 samples.

Results

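The genes described here are 38 genes of protein folding in the endoplasmic reticulum (ER) and of the unfolded protein response. They were taken by gene symbol from a list that covers ER folding, ER-associated degradation and the ATF6 and XBP1 branches of the response. The rule of the list used no measured value, but the genes were chosen with earlier results of these data known. All 38 had a row in the deposited table, among 24541 gene symbols, with 55 transcripts between them, and all 38 passed the filter on low counts, which kept 15123 genes. The libraries were RNA-seq of mouse kidney cells held by magnetic beads against F4/80, a macrophage surface protein encoded by Adgre1, from perfused kidneys digested with Liberase and cleared of dead cells. The mutant group was 4 mice, replicates 1, 2, 4 and 5, heterozygous for UMOD C105F, a point mutation placed in the endogenous gene by CRISPR/Cas9 in C57BL/6J embryos. The other group was 6 wild-type littermates, replicates 1 to 6, and both groups were on the C57BL/6 background and aged 12 to 16 weeks. No drug or other inducer of ER stress is named for either group. Total estimated counts lay between 45380415 and 73643200 per library.

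The ER is where secreted and membrane proteins enter, fold, receive sugars and form disulfide bonds. When unfolded proteins build up there, 3 sensors in the ER membrane act: IRE1, encoded by Ern1, which cuts a short intron out of Xbp1 mRNA, ATF6, which is released as a transcription factor by cleavage in the Golgi, and PERK, which slows translation and favours that of ATF4. XBP1 and ATF6 raise chaperones, folding enzymes and degradation factors, while ATF4 and CHOP raise genes of amino acid supply and cell fate. UMOD encodes uromodulin, a protein rich in disulfide bonds that is secreted by cells of the thick ascending limb of the kidney, and mutations that remove a cysteine keep it in the ER of those cells.

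The F4/80 selection did not give libraries of 1 cell type. Adgre1 ran from 13.96 to 819 CPM (CPM, counts scaled by TMM to library size), and the summed level of 14 resident macrophage markers (of 15 listed) from 662 to 8070.1 CPM in mutants and from 243 to 3921 CPM in wild types. None of the 14 macrophage markers tested was called between genotypes by edgeR, DESeq2 or limma-voom (2, 3 and 0 at an unadjusted p under 0.05). With the replicate number as a block, over the 8 libraries whose numbers occur in both groups, edgeR called 11 of the 14 as risen, and the same libraries without the block gave none. In the fit of all 10 libraries 13 of the 14 estimates were positive, with a median log2 fold change of 1.14. Proximal tubule markers summed to 30453 to 65367 CPM in mutants and 28909 to 71524 CPM in wild types. The 10 markers of the thick ascending limb and distal convoluted tubule, the segments that make uromodulin and their neighbours, summed to 3196 to 9417 CPM in mutants and 11469 to 25013 CPM in wild types, all 10 estimates were negative with a median of -0.60, and 1 of them, Egf, fell. The Egf call was lost without each single library other than mutant 2 (edgeR adjusted p up to 0.0981) and with the proximal tubule score as covariate (0.0681). Umod itself averaged 2470 ± 1616 CPM in the 4 mutants and 10076 ± 3056 CPM in the 6 wild types (mean ± SD), with no overlap, and its log2 fold change of -2.03 had an edgeR adjusted p of 0.184. DESeq2 called it (adjusted p 0.000171), as did edgeR with a macrophage marker score, the mean centred log2 CPM of the 14 markers, as covariate (0.0192) and with the replicate block (0.0181). In such bulk libraries fewer cells of a type and less RNA per cell cannot be told apart, and the part of these markers in the values below was not tested except where a value with the marker score is given.

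None of the 38 genes differed between mutant and wild-type libraries by the quasi-likelihood F test of edgeR, where a call means a p under 0.05 after Benjamini-Hochberg adjustment over all genes tested. Over all 15123 genes 30 were called, which is 0.198%, and 27 of these rose (0.179%) and 3 fell (0.0198%). Adjusted p-values of the 38 genes ran from 0.701 to 0.9999. Before adjustment 1 of the 38, Crebrf, had a p under 0.05, beside 5.9% of all genes. DESeq2 and limma-voom also called none, beside 143 and 22 of all 15123 genes. With these tools 2 and 1 of the 38 genes had an unadjusted p under 0.05, and the share of all genes at that threshold is not given for them. The log2 fold changes of mutant over wild type were positive for 24 genes and negative for 14, with a median of 0.08, beside 51.2% positive and a median of 0.01 for all genes tested. Without mutant 5 the tally was 16 positive and 22 negative with a median of -0.0421, and with the macrophage marker score in the fit it was 19 and 19 with a median of 0.0112. The intervals bound the differences: the 95% interval lay within 2-fold either way for 36 of the 38 genes and within 1.5-fold for 23. The exceptions to the 2-fold bound were Sdf2l1, whose interval ran from -0.60 to 1.10 on the log2 scale, and Derl3, from -2.10 to 0.03. Standard errors of the log2 fold change lay between 0.0946 and 0.482.

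**Figure D1:**
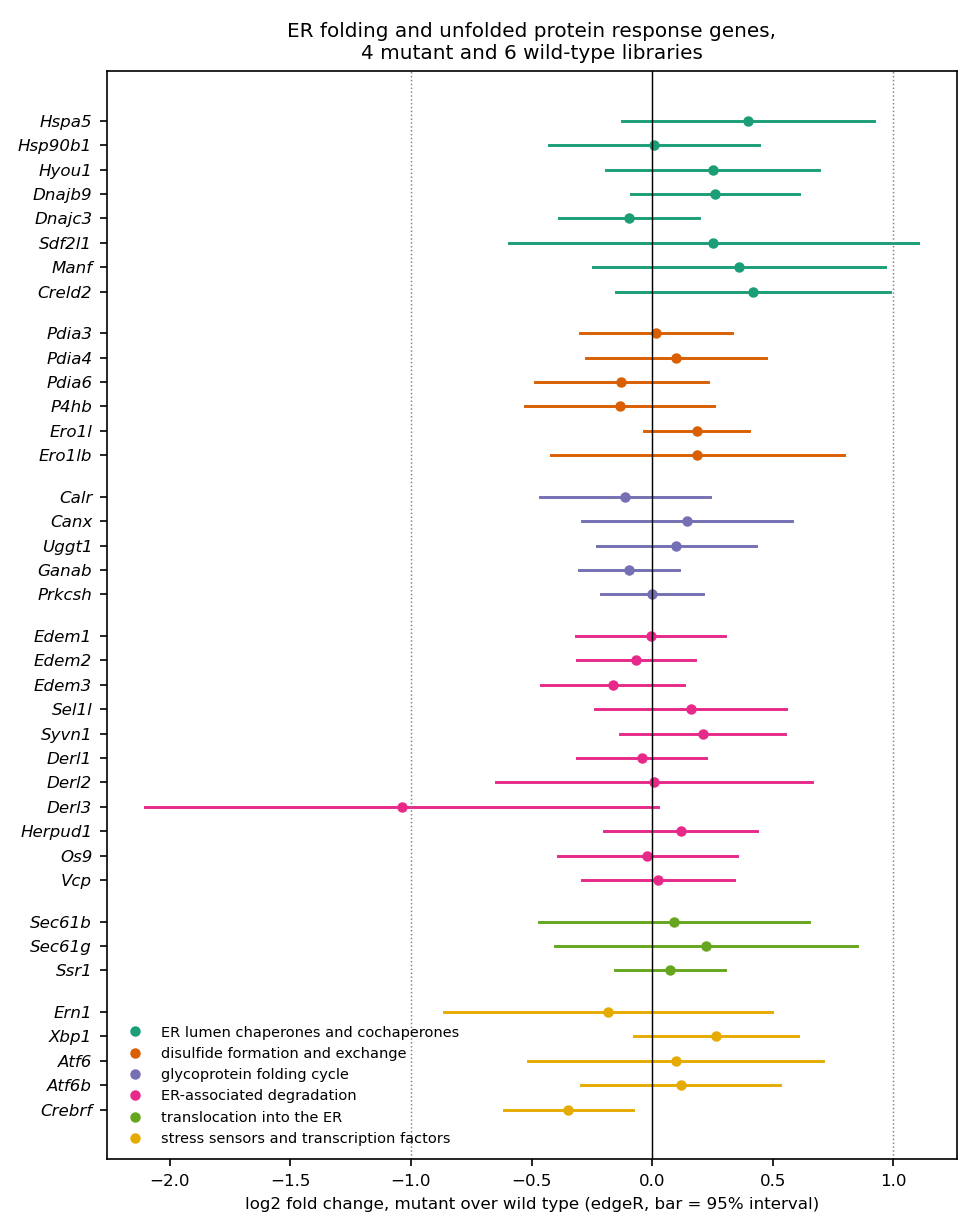
Log2 fold change of mutant over wild-type libraries for each of the 38 genes (x axis, point) with its 95% interval (bar) from edgeR, coloured and ordered by role; dotted lines mark 2-fold. Estimates ran from -1.04 (Derl3) to 0.42 (Creld2), the interval of Crebrf, -0.62 to -0.08, was the one that left out 0, and no gene passed the adjusted threshold.

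The promoters of these genes were read for the sequence elements through which the sensors are known to act, which are known from genes that ATF6 and XBP1 raise. The ER stress response element (ERSE) is CCAAT, any 9 bases, then CCACG, which ATF6 binds together with the factor NF-Y. Promoter windows of 250 bases before to 50 after the start of transcription, from RefSeq on GRCm38.p6 (the assembly also called mm10), were matched by gene identifier for 34 of the 38 genes. A gene was counted if any of its windows held an element, while the share over all promoters counts single windows. Hyou1, Manf, Derl1 and Atf6 had no window in the table used. The ERSE, on either strand, was found in 10 of the 34 genes (29.4%), against 39 of all 32851 promoter windows (0.119%). It is shown here in the 10 genes that held it, written 5′ to 3′ in the direction of the element with 8 bases on each side and the element in capitals, Hsp90b1 having one on each strand. Coordinates are those of the element on GRCm38.p6, with the strand on which it reads. Hspa5, Hsp90b1, Dnajc3 and Creld2 are chaperones and cofactors, Pdia6 and Ero1lb act on disulfide bonds, Calr and Canx hold glycoproteins, and Syvn1 and Derl3 serve degradation.
Hspa5, chr2:34772025-34772043, plus strand: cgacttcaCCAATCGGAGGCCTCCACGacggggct
Hsp90b1, chr10:86705638-86705656, minus strand: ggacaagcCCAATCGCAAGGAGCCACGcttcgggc
Hsp90b1, chr10:86705533-86705551, plus strand: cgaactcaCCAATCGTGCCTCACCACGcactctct
Dnajc3, chr14:118937827-118937845, plus strand: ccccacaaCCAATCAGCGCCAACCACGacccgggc
Creld2, chr15:88819520-88819538, minus strand: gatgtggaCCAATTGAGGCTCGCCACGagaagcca
Pdia6, chr12:17266491-17266509, plus strand: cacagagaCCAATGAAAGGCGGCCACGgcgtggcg
Ero1lb, chr13:12565682-12565700, minus strand: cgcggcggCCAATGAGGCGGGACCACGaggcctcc
Calr, chr8:84847075-84847093, plus strand: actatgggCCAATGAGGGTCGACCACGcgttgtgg
Canx, chr11:50325800-50325818, minus strand: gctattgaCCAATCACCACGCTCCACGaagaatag
Syvn1, chr19:6046532-6046550, plus strand: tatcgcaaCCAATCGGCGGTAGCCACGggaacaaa
Derl3, chr10:75893242-75893260, minus strand: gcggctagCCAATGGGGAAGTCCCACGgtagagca

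The log2 fold changes of these 10 genes ran from -1.04 for Derl3 to 0.42 for Creld2, so genes that hold the element lay at both ends of the range. Other elements were less frequent. ERSE-II, which is ATTGG, any 1 base, then CCACG, was found in 1 of the 34 genes, Herpud1 (2.94%, against 0.037% of all windows). The UPRE core TGACGTGG, bound by XBP1 and ATF6, was found in 1 gene, Vcp (2.94%, against 0.676% of all windows). The ATF4-CEBP element, read as TGATG, any 1 base, AA and any 1 base, through which ATF4 acts on its targets, was found in 1 of the 34 genes, again Herpud1 (2.94%, against 3.95% of all windows). For comparison, it was found in 5 of 15 genes with a window in a list of ATF4 and CHOP targets (33.3%), which held no ERSE. The Herpud1 and Vcp elements are shown with 2 targets of ATF4 as a contrast, Asns and Chac1, in the same form.
Herpud1 ERSE-II, chr8:94386377-94386387, plus strand: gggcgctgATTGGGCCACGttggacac
Herpud1 ATF4-CEBP element, chr8:94386316-94386324, minus strand: gtgcgggcTGATGCAACccgccgtg
Vcp UPRE, chr4:43000614-43000621, minus strand: cggccaatTGACGTGGcgttacta
Asns ATF4-CEBP element, chr6:7693224-7693232, minus strand: cagccacaTGATGAAACttcccgca
Chac1 ATF4-CEBP element, chr2:119351048-119351056, minus strand: ggcaggagTGATGCAACggcaggga

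These matches are letters in a window and say nothing of binding in these cells. Motifs were searched separately, so that one may overlap another.

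Levels per transcript length set the order of the genes, using the deposited FPKM values summed per gene (fragments scaled to transcript length and library depth). Averaged over the 10 libraries, Calr, the lectin chaperone calreticulin, was highest at 663 FPKM. P4hb, the classical protein disulfide isomerase, followed at 411 FPKM, Hspa5, encoding the chaperone BiP, at 374 FPKM, Pdia3 at 311 FPKM, Hsp90b1 at 252 FPKM and Canx at 172 FPKM. Neighbours in this order overlapped: Hspa5 ran from 215 to 609.9 FPKM over the libraries and Pdia3 from 280.3 to 389 FPKM, a range that lies inside the first. The lowest levels were those of the regulator Crebrf at 5.37 FPKM, the oxidase gene Ero1lb at 3.96 FPKM, the sensor gene Ern1 at 2.56 FPKM and the derlin gene Derl3 at 0.551 FPKM. Among all 24541 symbols Calr ranked 145 and Derl3 ranked 12763. Between libraries, Prkcsh and Derl1 varied least in FPKM, with a highest value 1.19 and 1.14 times the lowest, and Derl3 and Sdf2l1 most, 5.14 and 4.53 times. The steadiest genes depend on the scaling: in CPM Derl1 ran from 154 to 220 over the libraries and Ganab from 221 to 261.

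**Figure D2:**
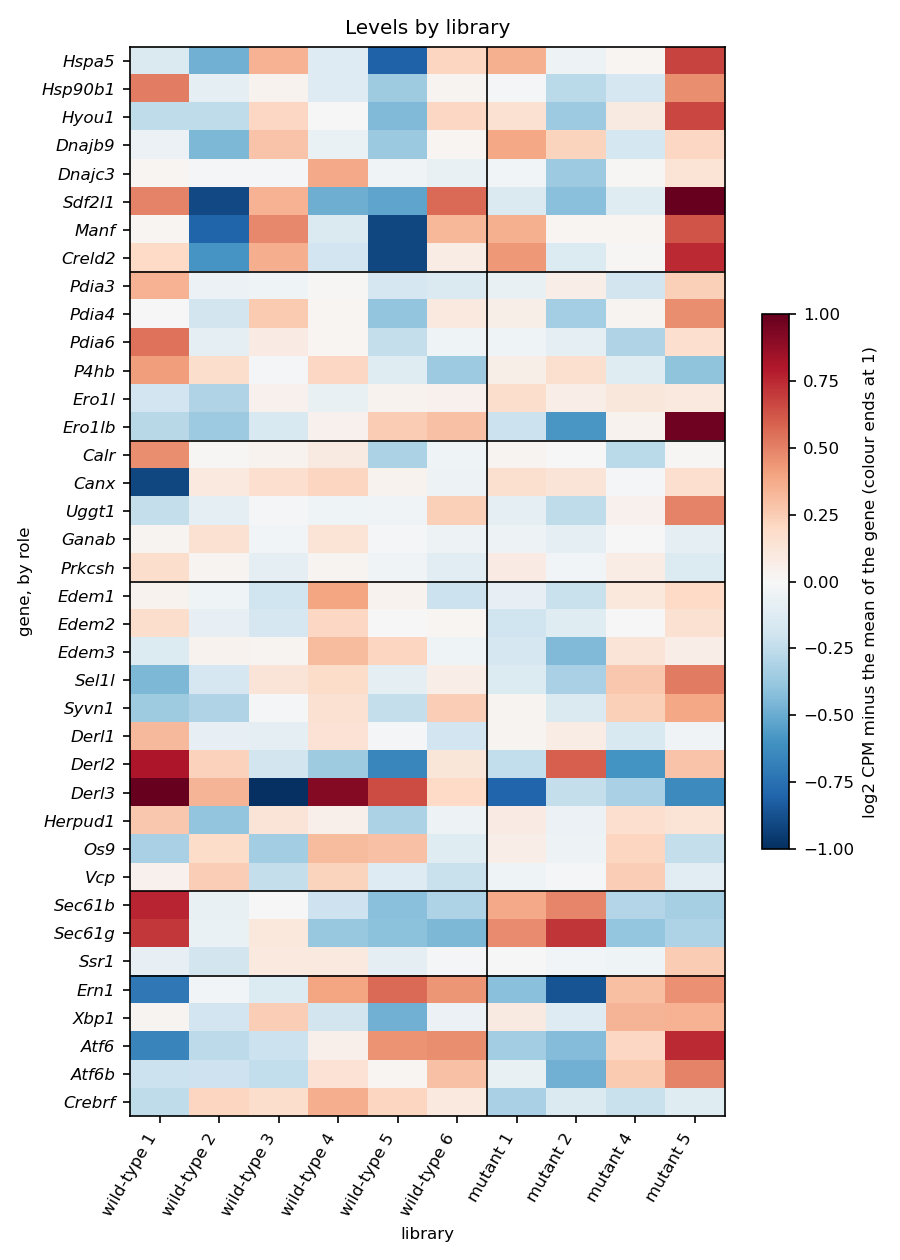
Log2 CPM of each gene (rows, ordered by role) in each of the 10 libraries (columns), minus the mean of that gene over the libraries; red is above and blue below the mean, and colour ends at 1 either way. Mutant 5 is above the mean for most chaperones and for Atf6 and Ero1lb, wild-type 5 is below it for Hspa5, Manf and Creld2, and wild-type 1 is far below it for Canx.

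Of the 8 chaperones and cochaperones of the ER lumen none was called, 7 estimates were positive and the median log2 fold change was 0.26. Without mutant 5, the library with the highest macrophage marker level, 5 of the 8 were positive with a median of 0.13, and with the macrophage marker score in the fit 5 of the 8 with a median of 0.17. Other settings gave a higher median with 7 of the 8 positive. It was 0.40 without mutant 2. Over the 8 libraries whose replicate numbers occur in both groups it was 0.44 with the replicate block and 0.47 without it. Hspa5 encodes BiP, the Hsp70 chaperone whose release from the sensors is part of their activation. Its promoter is shown because this gene is the usual readout of the ATF6 branch, with the 1 exact match to the ERSE pattern in capitals. Only exact matches were searched, so elements that differ from the pattern are not marked. The promoter lies at chr2:34771840-34772089 on the plus strand of GRCm38.p6, directly before a gene that spans 34772090 to 34776529 of chromosome 2.
Hspa5 promoter: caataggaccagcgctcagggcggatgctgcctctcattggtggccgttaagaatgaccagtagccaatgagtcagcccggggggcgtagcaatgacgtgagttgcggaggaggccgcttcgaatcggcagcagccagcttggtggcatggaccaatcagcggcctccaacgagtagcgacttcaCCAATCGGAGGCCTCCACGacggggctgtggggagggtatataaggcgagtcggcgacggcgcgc

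Hspa5 measured 1179.6, 893, 939 and 1480.2 CPM in mutants 1, 2, 4 and 5, and from 528 to 1173 CPM with a median of 840.3 in the 6 wild types. Mutant 5 was the highest library and wild-type 5 the lowest, and the groups overlapped. The means were 1123 ± 269 CPM (SD, n = 4) and 853 ± 242 CPM (n = 6). The log2 fold change was 0.40, with a SE of 0.237, a 95% interval of -0.12 to 0.92 and an edgeR adjusted p of 0.958. Hsp90b1, the ER form of Hsp90, also known as GRP94, measured 681, 575, 614 and 955 CPM in mutants 1, 2, 4 and 5 and 539.7 to 988 CPM in wild types, with a median of 676. Wild-type 1 and mutant 5 stood above all other libraries, and the group means of 706 ± 171 and 703 ± 152 CPM were nearly equal, with a log2 fold change of 0.01 (interval -0.43 to 0.44).

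Dnajb9, which encodes ERdj4, a J-domain cochaperone of BiP and a known target of XBP1, measured 122, 109, 82.9 and 108 CPM in mutants 1, 2, 4 and 5 and 68.5 to 114 CPM in wild types, with a median of 89.4. Mutants 1, 2 and 5 lay in the upper part of the wild-type range or above it, and the log2 fold change was 0.26 (SE 0.159, interval -0.09 to 0.61). Creld2, an ER protein secreted under ER stress, measured 59.95, 40.4, 44.7 and 74.4 CPM in mutants and 23.6 to 57.0 CPM in wild types, with a median of 42.7. Mutants 1 and 5 were above every wild type, mutants 2 and 4 were in the middle of them, and the log2 fold change of 0.42 (SE 0.258, interval -0.15 to 0.99) was the highest of the 38 genes. Sdf2l1, a partner of the BiP cochaperone ERdj3, measured 37.1, 30.7, 37.8 and 93.4 CPM in mutants and 22.0 to 60.6 CPM in wild types, with a median of 40.6. Its value in mutant 5 alone was above the wild types, the other 3 mutants were below the wild-type median, and its log2 fold change was 0.25 with a SE of 0.384.

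Of the other lumenal genes, Manf, an ER stress-inducible secreted protein that binds BiP, had a log2 fold change of 0.36 with 4 mutants between 115 and 176 CPM and wild types between 60.3 and 158 CPM. Hyou1, the nucleotide exchange factor of BiP, had 0.25, and Dnajc3, a J-domain protein also known as p58IPK, had -0.10, the single negative estimate among the 8.

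**Figure D3:**
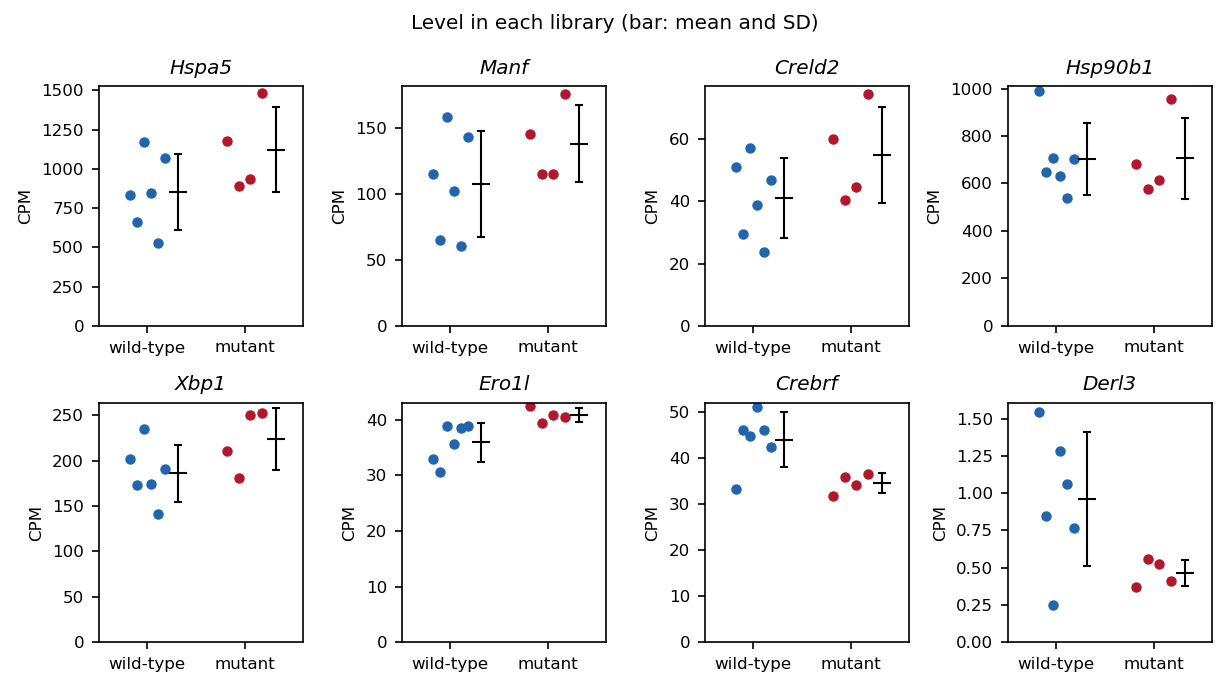
CPM of 8 genes in each of the 4 mutant and 6 wild-type libraries (points), with the mean and SD of each group (bar); each y axis starts at 0. The groups overlap for 7 of the 8, and for Ero1l all 4 mutants, at 39.4 to 42.5 CPM, lie above all wild types, at 30.5 to 38.8 CPM.

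The 6 genes of disulfide formation and exchange had a median log2 fold change of 0.06. Ero1l encodes ERO1-alpha, the oxidase that passes oxidising equivalents to protein disulfide isomerase, and it was the one gene of the 38 whose groups did not overlap (2.63%). Of all genes 1.96% did not overlap, 0.946% with the mutant above and 1.02% with the mutant below. It measured 42.5, 39.4, 40.9 and 40.4 CPM in mutants 1, 2, 4 and 5 and 30.5 to 38.8 CPM in wild types, with a median of 37.1. The gap was small, since the lowest mutant exceeded the highest wild type by less than the SD of the wild types: the means were 40.8 ± 1.28 CPM (n = 4) and 35.9 ± 3.51 CPM (n = 6), the log2 fold change 0.18 (SE 0.0992, interval -0.03 to 0.40) and the edgeR adjusted p 0.929. Its paralog Ero1lb had a log2 fold change of 0.19 with a wider interval, -0.42 to 0.79. Pdia3, which works with the lectin chaperones on glycoproteins, had 0.02 and the isomerase Pdia4 had 0.10. The isomerases Pdia6 and P4hb had negative estimates, -0.13 and -0.13, and both intervals included 0.

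The glycoprotein cycle, in which glucosidase II trims and UGGT1 re-adds a glucose that calnexin and calreticulin recognise, had 5 genes with estimates on both sides of 0 and a median of -0.0005. Prkcsh and Ganab, the beta and alpha subunits of glucosidase II, were among the most precisely bounded genes, with log2 fold changes of -0.0005 (interval -0.21 to 0.21) and -0.09 (interval -0.30 to 0.11). Calr had -0.11, Uggt1 had 0.10, and Canx, encoding calnexin, had 0.14 with an interval of -0.29 to 0.58. For Canx the 386 CPM of wild-type 1 stood apart from the 700.0 to 840.5 CPM of the other 5 wild types and the 720.0 to 817 CPM of the mutants. In that library the main Canx transcript held 57.2% of the gene's estimated counts, against 89.3% to 96.0% in the other 9.

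The 11 genes of ER-associated degradation, which move misfolded proteins back to the cytosol for the proteasome, had 5 positive and 6 negative estimates and a median of -0.01. Herpud1, a membrane protein that organises the degradation complex, measured 255, 230.2, 269 and 264 CPM in mutants 1, 2, 4 and 5 and 182 to 289 CPM in wild types, with a median of 240.0. All 4 mutants were inside the wild-type range and the log2 fold change was 0.12 (SE 0.144, interval -0.20 to 0.44). Syvn1, the ubiquitin ligase HRD1, measured 35.4, 31.3, 40.8 and 45.4 CPM in mutants and 27.1 to 41.1 CPM in wild types, with a median of 31.8. Mutant 5 alone was above the wild types, and the log2 fold change was 0.21 (SE 0.155, interval -0.13 to 0.55). Sel1l, the adaptor of HRD1, had 0.16.

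Derl3, one of 3 derlins of the degradation complex, had the largest estimate in size and the lowest level of the 38. It measured 0.369, 0.558, 0.522 and 0.414 CPM in mutants 1, 2, 4 and 5 and 0.253 to 1.54 CPM in wild types, with a median of 0.954. A total of 5 wild types were above all mutants, wild-type 3 was below all of them, and the log2 fold change of -1.04 (SE 0.482) had an edgeR adjusted p of 0.85. Derl3 is best known from secretory cells such as plasma cells, and 9 B and plasma cell markers that were tested summed to 12.0 to 42.4 CPM in mutants and 2.23 to 31.2 CPM in wild types, with 6 of the 9 under 1 CPM on average. The other derlins, Derl1 and Derl2, had log2 fold changes of -0.04 and 0.01. The mannosidase-like genes Edem1, Edem2 and Edem3, which mark glycoproteins for degradation, had -0.01, -0.07 and -0.16, the lectin gene Os9 had -0.02 and Vcp, the p97 motor that pulls proteins out of the membrane, had 0.02 with an interval of -0.29 to 0.34.

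The 3 genes of translocation into the ER, the Sec61 channel subunits Sec61b and Sec61g and the translocon-associated protein Ssr1, had log2 fold changes of 0.09, 0.22 and 0.08. The first pair varied over about the same range in both groups, with Sec61g between 62.1 and 134 CPM in mutants and between 59.6 and 133 CPM in wild types.

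Among the 5 sensors and transcription factors, Xbp1, the mRNA that IRE1 splices, measured 211, 181, 250.4 and 253 CPM in mutants 1, 2, 4 and 5 and 142 to 235 CPM in wild types, with a median of 182. Mutants 4 and 5 were above all wild types and mutant 2 was below their median, so that the groups overlapped, with a log2 fold change of 0.27 (SE 0.154, interval -0.07 to 0.60, edgeR adjusted p = 0.958). Ern1 measured 7.19, 5.27, 11.8 and 13.2 CPM in mutants and 5.83 to 14.2 CPM in wild types, with a median of 11.01. Mutant 2 was just below the wild types and mutant 1 low among them, mutants 4 and 5 were in the upper part of their range, and the log2 fold change was -0.18 (SE 0.308). Atf6 measured 43.9, 41.5, 64.8 and 94.3 CPM in mutants and 35.4 to 77.3 CPM in wild types, with a median of 53.2. Mutants 1 and 2 were again low, mutant 5 was above every wild type, and the log2 fold change was 0.10 (SE 0.278). Atf6b, the paralog of Atf6, had 0.12.

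Crebrf, a regulator that promotes turnover of the ER stress factor CREB3, had the smallest unadjusted p of the 38 genes. It measured 31.7, 36.0, 34.1 and 36.7 CPM in mutants 1, 2, 4 and 5 and 33.3 to 51.2 CPM in wild types, with a median of 45.6. A total of 5 wild types were above all mutants and wild-type 1 was inside the mutant range. The means were 34.6 ± 2.20 CPM (n = 4) and 44.0 ± 5.97 CPM (n = 6), the log2 fold change -0.35 (SE 0.122, interval -0.62 to -0.08) and the p from edgeR 0.0159, which became 0.701 after adjustment over all genes.

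Splicing of Xbp1 by IRE1 could be read as an estimate, since the table gives the unspliced and the spliced mRNA as separate transcripts of 2247 and 2221 bases. The 26 bases that IRE1 removes lie in exon 4, within the coding sequence, at chr11:5524279-5524304 on the plus strand of GRCm38, and are shown in capitals with 20 bases on each side.
Xbp1: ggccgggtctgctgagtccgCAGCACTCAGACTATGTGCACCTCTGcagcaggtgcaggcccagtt

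The spliced transcript held 31.8%, 48.0%, 46.6% and 43.5% of Xbp1 FPKM in mutants 1, 2, 4 and 5. In wild types 1 to 6 it held 22.8%, 42.5%, 43.1%, 32.8%, 38.3% and 40.7%. Mutants 2, 4 and 5 were above every wild type and mutant 1 was below 5 of them. The means were 42.5% ± 7.35 (SD, n = 4) and 36.7% ± 7.75 (n = 6), a difference of 5.78 percentage points. A two-sided exact permutation test over 210 assignments, which doubles the smaller tail, gave p = 0.286. Without mutant 1 the difference was 9.33 points with an exact permutation p of 0.0238, so that 1 library decides the call. That p is the smallest that this test can give with the remaining libraries. Leaving out each other library gave differences from 3.01 to 7.05 points. The level of the spliced transcript was 42.7 ± 12.5 FPKM in mutants and 30.5 ± 10.4 FPKM in wild types, and that of the unspliced one 57.3 ± 12.2 and 51.5 ± 8.14 FPKM. Reads over the 26 bases are the ones that tell both transcripts apart, so that the shares are estimates of the authors' software. Binomial intervals for these shares are not given because the deposited counts are apportioned, not read one by one.

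**Figure D4:**
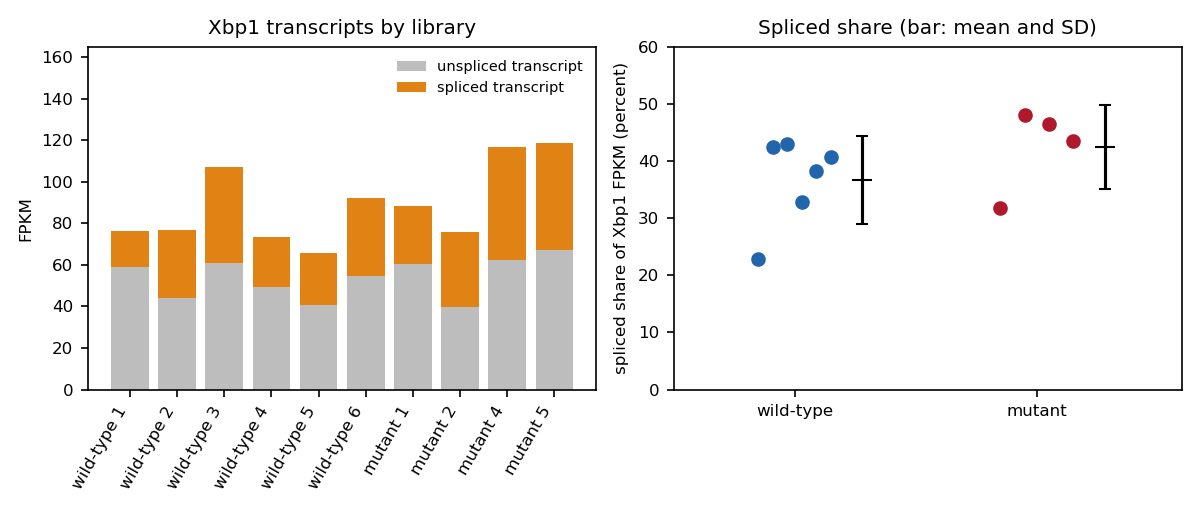
Left, FPKM of the unspliced (grey) and spliced (orange) Xbp1 transcript in each library, stacked; right, the spliced share in percent for each library (points) with the mean and SD of each group (bars). Mutants 2, 4 and 5, at 43.5% to 48.0%, lie above the 6 wild types, and mutant 1, at 31.8%, lies among them.

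The 38 genes did not vary together as 1 block. Likeness to Hspa5 was measured as Pearson's r of log2 CPM over the 10 libraries, a measure chosen after the values were seen, with permutation p-values from 100000 resamples adjusted over the 37 other genes. Manf was most like it, with r = 0.97 and Spearman's rho = 0.95 (adjusted permutation p = 0.00074 and 0.00592), and r = 0.96 without wild-type 5 and mutant 5, the 2 libraries farthest from the Hspa5 median. Creld2 followed with r = 0.96 (rho 0.88), and 0.88 without those libraries. Hyou1 had r = 0.89 (rho 0.87) and 0.77 without them, Dnajb9 0.83 (rho 0.78) and 0.84, Pdia4 0.87 (rho 0.89) and 0.67, and Xbp1 0.83 (rho 0.83) and 0.58, so that the last pair rests in part on the 2 libraries. Within the 6 wild types r was 0.97 for Manf, 0.93 for Creld2, 0.94 for Hyou1, 0.92 for Dnajb9, 0.99 for Pdia4 and 0.89 for Xbp1. An r above 0.8 was reached by 6 of the 37 genes (16.2%), against 57 of 15122 genes (0.38%), and the median r was 0.23 for the 37 and 0.02 for all. Hsp90b1, the other large lumenal chaperone with the element in its promoter, had r = 0.55, and 0.02 without the 2 libraries, and Derl3 had -0.68. All points share the libraries and their cell mixture.

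Levels of several of the genes followed the macrophage markers from library to library. The macrophage marker score was -0.64, -0.62, 1.14 and 2.95 in mutants 1, 2, 4 and 5 and ran from -2.18 in wild-type 1 to 1.68 in wild-type 6. In an edgeR fit with genotype and this score, the score was called for 10 of the 38 genes (26.3%), beside 5310 of all 15123 genes (35.1%), so the count lies near that background. A total of 7 were higher with the score (18.4%, beside 19.3% of all genes) and 3 were lower (7.89%, beside 15.8%). The sensors were among the first: Atf6 had 0.31 log2 units per score unit (SE 0.0317, adjusted p 2.48e-05), Ern1 0.30 (adjusted p 0.00342) and Atf6b 0.18 (adjusted p 0.00383). Ero1lb had 0.27, Sel1l 0.15, Uggt1 0.14 and Syvn1 0.13. The 3 that were lower with the score were Sec61g at -0.27 (adjusted p 0.00251), Sec61b at -0.23 (adjusted p 0.00397) and P4hb at -0.16 (adjusted p 0.00764). Hspa5, at 0.08 with an interval of -0.08 to 0.24, and Xbp1, at 0.02 with an interval of -0.09 to 0.13, were not called.

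Mutant 5 and wild-type 1, at the ends of the score, weigh on these slopes. Without mutant 5 the score was called for 7 of the 38 genes, beside 21% of 15268 genes. In the 6 wild types alone it was called for 2, Atf6 at 0.30 (adjusted p 0.00799) and Sec61g at -0.26 (adjusted p 0.0463), beside 10.5% of 13689 genes. With the score in the fit, the genotype estimate of Hspa5 was 0.29 (adjusted p 0.59), that of Atf6 turned from 0.10 to -0.29 (adjusted p 0.241), and none of the 38 was called.

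**Figure D5:**
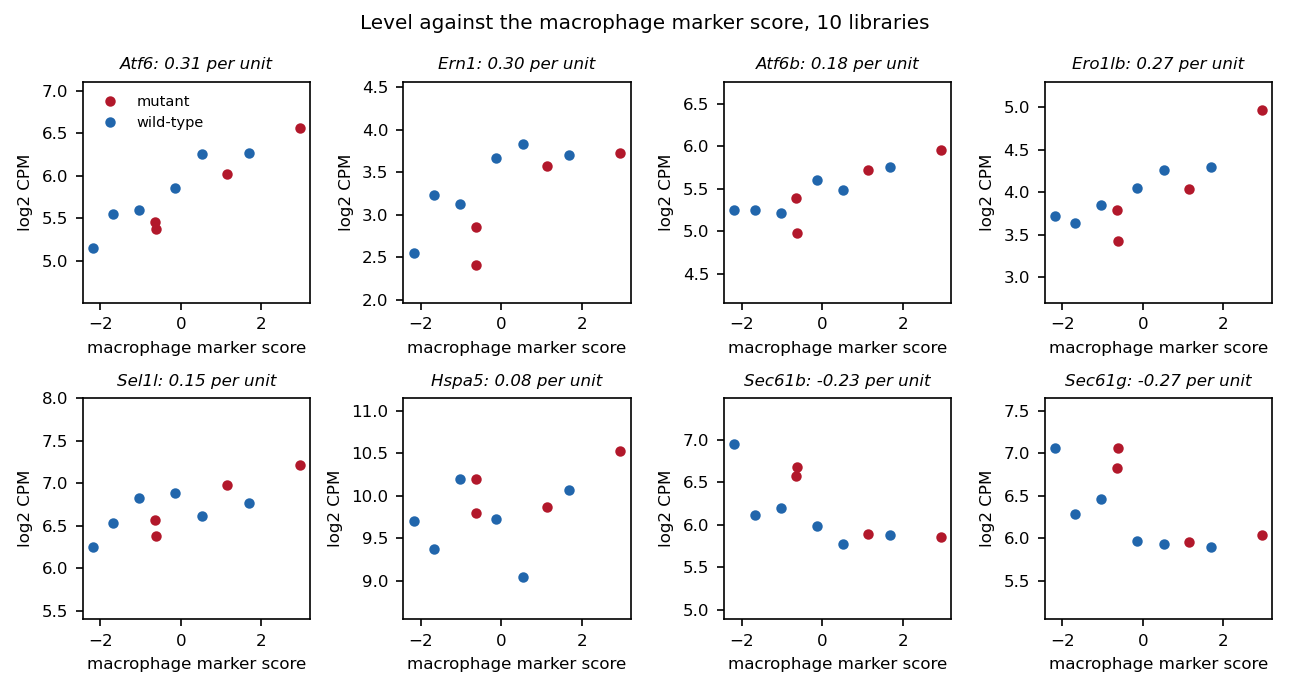
Log2 CPM of 8 genes (y axis, each spanning the same number of log2 units) against the macrophage marker score of each library (x axis), mutant in red and wild type in blue; the number above each panel is the log2 change per score unit with genotype in the fit. Atf6, at 0.31 per unit, increases along the score in both groups, Sec61g, at -0.27, decreases, and Hspa5, at 0.08, shows no called slope.

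Other genes of the same pathway were taken from 4 lists. Of 93 that were tested, edgeR and limma-voom called none and DESeq2 called 1. A total of 52 estimates were positive, beside 51.2% of all genes, and the median log2 fold change was 0.01. In edgeR 8 had an unadjusted p under 0.05, beside 5.9% of all genes. The 23 genes of translocation, signal peptide cleavage and N-glycan transfer had a median of 0.04, the 29 folding enzymes and cochaperones 0.03, the 23 of ER-associated degradation -0.02 and the 18 sensors, proteases and regulators 0.01. The gene that came closest to a call was Rcn1, reticulocalbin 1, a calcium-binding protein of the ER lumen. It measured 30.4, 27.7, 24.1 and 38.7 CPM in mutants 1, 2, 4 and 5 and 11.5, 15.9, 19.98, 12.0, 14.7 and 21.3 CPM in wild types 1 to 6. All mutants were above all wild types, with a log2 fold change of 0.93 (SE 0.203) and an edgeR adjusted p of 0.184. DESeq2 called it, with an adjusted p of 0.01005.

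Groups also did not overlap, with the mutant above, for Dnajc10, a disulfide reductase of the degradation pathway, at a log2 fold change of 0.35 (edgeR adjusted p 0.553), for Calu, a calcium-binding relative of Rcn1, at 0.25 (adjusted p 0.76), for Ube2j1, a ubiquitin-conjugating enzyme of the ER membrane, at 0.28 (adjusted p 0.783) and for Sec61a2, a channel subunit, at 0.33 (adjusted p 0.84). With Rcn1, 5 of the 93 genes had no overlap with the mutant above and 0 with the mutant below, beside 0.946% and 1.02% of all genes. Of the other genes with the smallest p in each list, Stt3a and Ostc of the sugar transfer complex had 0.13 and 0.21, Ubxn4, an anchor of p97, had 0.20 and Casp12, the ER-linked caspase, 0.90. Erlin2, which serves degradation of membrane proteins, had -0.28, Wfs1, wolframin, -0.23 and Creb3l2, a relative of ATF6, -0.31, with edgeR adjusted p-values of 0.761, 0.953 and 0.959.

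Targets of ATF4 and CHOP, factors that PERK and other kinases of eIF2-alpha act through, were read in the same fit. Of 16 tested, 7 rose, beside the 0.179% of all genes that rose, none fell, 14 estimates were positive and the median log2 fold change was 1.51. Trib3, a pseudokinase raised by ATF4 and CHOP, was at 47.8, 58.2, 22.8 and 24.9 CPM in mutants 1, 2, 4 and 5 and at 0.349 to 0.997 CPM in wild types, with 5.75 as the log2 fold change (SE 0.377) and an edgeR adjusted p of 0.000151. The stress-induced factor gene Atf5 had 2.95 and Asns, asparagine synthetase, 2.86. Atf4 had 1.00 with an edgeR adjusted p of 0.0575. Without mutant 1 the count of targets that rose was 5, beside 14 of all genes. Without both wild-type 1 and mutant 5, a setting chosen after seeing the data, it was 3, Trib3, Atf5 and Asns, beside 10 of all genes. The count was higher in other settings: 9 with DESeq2 (beside 66 of all genes), 9 with the replicate block (193) and 8 with the macrophage score as covariate (40). The 16 targets were listed with earlier results of these data known, so their count is a description, and the difference between this list and the 38 genes was not tested.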

How the data were processed

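The authors deposited 1 table with estimated counts and FPKM for 36779 RefSeq transcripts of 24541 symbols, and 1 empty line. Per the submitters' processing notes, reads were handled with StringTie 1.3.4d, Bowtie2 2.3.4.1, HISAT2 2.1.0, Trimmomatic 0.38 and DESeq2 on mm10, and their roles are not given in the sources used here. Whole numbers fill the deposited estimated count columns, and the deposited FPKM values equal them up to transcript length and 1 constant per library. How reads shared by paralogs, overlapping genes or transcripts were apportioned is not given, so values of Ero1l and Ero1lb, the derlins and single transcripts are less certain. Per the labels' protocols, the libraries kept strand and came from 75 ng of RNA selected by oligo-dT.

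Counts were summed per symbol, filtered with filterByExpr, scaled by TMM and tested with the robust quasi-likelihood F test of edgeR 4.0.16 (R 4.3.3) without covariates. Standard errors are the log2 fold change divided by the root of F, and 95% intervals use its degrees of freedom. CPM are TMM-scaled, with a prior count of 2 on the log2 scale. Alternatives were RLE size factors, no filter, DESeq2 1.42.0, limma 3.58.1, marker scores as covariates, a replicate block and leaving out each library. The labels describe separate mice, and no pair of libraries was a duplicate (chi-square per gene of at least 72.2).

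On simulated counts of 15123 genes with 4 mutant and 6 wild-type libraries, the test recovered 82% of genes raised 4-fold, 46% of those raised 2-fold, 80% lowered to 0.25 and 36% lowered to 0.5 of their level, and 7.58% of calls were unchanged genes. Full values are given for 10 members fixed by name and the 8 with the smallest p, 13 in all, for the 3 genes with the smallest p of each other list, and for Umod, Adgre1 and Atf4; other members are given by estimate. The members, lists and tests were chosen with earlier results of these data known. Promoter sequences are from RefSeq, and exon positions from GENCODE vM21.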

Additional observations from a re-analysis of the deposited data

Results flagged for a closer look

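Within groups, 10 values stood apart from the rest of their group by Dixon's criterion (the gap to the nearest library against the group's range), of 78 groups examined (12.8%), the CPM of each of the 38 genes and the Xbp1 spliced share in each genotype; chance marks about 1 in 20. A total of 5 of them were in wild-type 1, the library with the lowest macrophage marker score: it was highest of the wild types for Hsp90b1 at 988 CPM, Pdia3 at 1056 CPM, Pdia6 at 410.3 CPM and Sec61b at 124 CPM, and lowest for Canx at 386 CPM. Wild-type 4 was highest for Dnajc3 at 247 CPM and Edem1 at 154 CPM. Mutant 5, the library with the highest macrophage marker score, was highest of the mutants for Sdf2l1 at 93.4 CPM and Ssr1 at 167 CPM. Mutant 4 was lowest for Calr at 1076 CPM. The part of the cell mixture in these values was not tested.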

How the results depend on the processing

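None of the 38 genes was called under any of the 19 other settings, and the median of the 38 moved from 0.08 to between -0.0421 and 0.0861 when 1 library was left out, the low end without mutant 5, and to -0.0243 without both ends of the macrophage score, a setting chosen after seeing the data. The count of the 38 at an unadjusted edgeR p under 0.05 was 1 in the main fit. It was 7 with the replicate block over 8 libraries, 7 in those libraries without it, and 5 with the macrophage score as covariate. The share of all genes at that threshold is not given for these 3 settings. In the block the lowest edgeR adjusted p of the 38 was 0.181, for Manf. Genes called overall went from 30 to 143 with DESeq2 (66 rose, 77 fell), 54 with the macrophage score as covariate (40 rose, 14 fell), 10 without both ends of that score, and 14 to 24 without 1 library. The replicate numbers shared by both groups (1, 2, 4 and 5) gave correlations of 0.426, 0.278, 0.017 and 0.445, not all above 0.1. These values cannot decide whether a shared number marks a pair or a batch, and the labels do not say. In both groups the macrophage marker score rose with the replicate number. It went from -0.64 to 2.95 in mutants and from -2.18 to 1.68 in wild types. With the replicate block over those 8 libraries 217 genes were called (193 rose), against 21 in the same libraries without it. In the block 11 of 14 macrophage markers rose, against none without it. Rcn1 was called in the replicate block at 1.15 (adjusted p 0.0243). Hsp90b1 turned to -0.0038 without the filter, -0.0108 with the macrophage score, -0.0852 with the proximal tubule score and -0.0679 without both ends. Sdf2l1 turned to -0.0871, -0.0995 and -0.146, and Atf6 to -0.292, -0.0574 and -0.312, in the last 3 of these settings. Without 1 library Hsp90b1 lay between -0.17 and 0.12, Sdf2l1 between -0.24 and 0.42, Atf6 between -0.19 and 0.24, and Ern1 between -0.39 and 0.0037. Over all the other settings Hspa5 lay between 0.21 and 0.65, Manf between 0.22 and 0.72 and Creld2 between 0.24 and 0.63. A total of 22 of the 38 changed sign in at least 1 setting and 16, Hspa5, Dnajb9, Manf, Creld2, Ero1l, Xbp1, Crebrf and Derl3 among them, in none; 18 of those 22 are not among the 13 genes given in full. The cause was not tested. The score was called for 7 to 11 of the 38 without 1 library, beside 21% to 37% of all genes, and for 2 in wild types alone, beside 10.5%. The spliced share of Xbp1 differed by 3.01 to 9.33 points without 1 library, and by 8.38 over the shared replicate numbers as a block (exact sign-flip p = 0.125, the smallest possible). With 4 mutants, changes of 2-fold or less in single genes are often missed.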
